A study of Mus musculus with 18 samples.

Results

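The cytosolic ribosomal proteins are the protein subunits of the ribosomes that translate nuclear messenger RNA. The set described here holds the 85 of 56691 rows of the gene count table whose symbols, after matching, are Rpl or Rps followed by a number and are annotated as protein coding, together with Rplp0, Rplp1, Rplp2 and Rpsa. Names of pseudogenes, the Rps6k kinases and the muscle paralog Rpl3l are not part of it. Of the 85 genes, 46 encode proteins of the large subunit and 31 encode proteins of the small subunit, which gives 77 subunit genes. Another 7 are paralogs of a subunit gene (Rpl7l1, Rpl10l, Rpl22l1, Rpl36al, Rpl39l, Rps27l and Rps27rt), and Rps19bp1, which encodes a protein that binds Rps19, entered through the form of its symbol. Fau, which encodes a ribosomal protein fused to a ubiquitin-like protein, falls outside the rule and is given beside the set. The 85 genes lie on 19 chromosomes, with at most 14 on 1 chromosome and 4 on the X (Rpl10, Rpl36a, Rpl39 and Rps4x).

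The study sequenced messenger RNA of left (LA) and right (RA) atria from mice labelled wild type (WT), heterozygous (Het) or knockout (KO) for Zfhx3, a gene for a zinc finger homeobox transcription factor. There were 3 libraries each of WT LA, Het LA, KO LA, Het RA and KO RA. WT RA had 3 columns, of which replicates 1 and 2 held the same count for every gene and were counted as 1 library, so that WT RA had 2 libraries and the study 17. The labels give no strain, age, sex or treatment, and do not say which part of Zfhx3 was altered or whether the alteration was limited to a cell type.

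Ribosomal protein genes are transcribed in nearly every cell, and their products are needed in equal numbers, 1 of each per subunit except for the proteins of the stalk. Their messenger RNAs start with a run of pyrimidines, the terminal oligopyrimidine tract, through which the mTORC1 kinase and the RNA-binding protein Larp1 control how much of them is translated. In the heart, ribosome number is known to rise when cardiomyocytes grow, and messenger RNA level is only 1 of the steps that set it.

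The start sites of several of these genes are shown because the family is known for the tract that lies there. Of the 85 genes, 65 had an entry in the promoter table made from RefSeq (GRCm38.p6). Each sequence below runs 5′ to 3′ on the coding strand, from 40 bases before to 20 bases from the start site onward, and capitals mark a run of at least 8 pyrimidines that begins with C. Rpl4 is shown as 1 of the 5 highest genes of the set, Rps6 for its role in signalling, and Rpl35, Rpl5 and Rpl36a for their values below. No entry was found for Rps29.
Rpl4, chr9:64173347-64173406, plus strand: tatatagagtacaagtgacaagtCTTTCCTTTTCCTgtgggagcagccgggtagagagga
Rps6, chr4:86857348-86857407, minus strand: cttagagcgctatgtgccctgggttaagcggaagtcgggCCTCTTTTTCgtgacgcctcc
Rpl35, chr2:39005112-39005171, minus strand: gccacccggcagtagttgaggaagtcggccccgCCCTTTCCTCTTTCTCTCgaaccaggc
Rpl5, chr5:107900488-107900547, plus strand: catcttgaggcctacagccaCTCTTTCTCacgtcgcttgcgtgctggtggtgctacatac
Rpl36a, chrX:134585614-134585673, plus strand: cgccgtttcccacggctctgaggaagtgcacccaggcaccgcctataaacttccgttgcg

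A run of at least 8 pyrimidines that begins with C and starts within 20 bases of the start site was present in 33 of the 65 genes (50.8%), against 19.3% of the 27025 genes in the table. The window of Rpl36a above holds no such run. By this annotation the runs of Rps6 and Rpl35 span the start site, while those of Rpl4 and Rpl5 end before it. Among windows examined but not shown, those of Rps24 hold such a run, and those of Rps15 and Rpl41 do not. In Rpl11 and in a window of Rps19 a run is cut by the window edge. CCGGAAG, the core of the binding site of ETS factors, was present on either strand of the window from 250 bases before to 50 after the start in 26 of the 65 genes, against 9.93% of all genes. TATAAA was present in 7 genes (10.8%) against 15.7%, and CACGTG, the E-box core, in 6 (9.23%) against 8.09%. These are matches of letters in a window and say nothing of whether a factor was bound.

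The libraries held 18000583 to 33483085 counts, with the fewest in the third WT LA library, and the set accounted for 132708 to 318237 of them. Zfhx3 itself was at 13.9 to 20.4 CPM (counts scaled to library size) in WT, 16.3 to 19.9 in Het and 14.9 to 18.01 in KO libraries, so it did not separate the genotypes and does not check the labels. Xist, which coats the inactive X, was in Het libraries at 575 to 706 CPM, beside no Ddx3y counts. WT libraries had the Y-linked Ddx3y at 109 to 176 CPM and Xist at no more than 1.10 CPM, and KO libraries were of both kinds, so that genotype and sex cannot be told apart for Het against WT. The 14 cardiomyocyte markers had mean log2 levels of 10.93 to 11.84, while 7 of 8 adipocyte markers stayed under 0.5 CPM in every library. WT LA replicate 3 stood apart. Its 12 fibroblast markers summed to 1560 CPM and its 12 macrophage markers to 92.5 CPM, below every other library, so values from WT LA are given without it where the call or the value depends on it. In atrial tissue, fewer cells of a type and less RNA per cell cannot be told apart. Mitochondrial genes took 24.1 to 26.7% of the counts in WT LA and 18.02 to 22.3% in the other 5 groups.

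The subunit genes differed 463-fold in level, measured as the mean of the 17 libraries in CPM per kb of the gene's principal transcript, although their products are used in equal numbers. The middle 50% of the 77 genes lay between 80.3 and 224 CPM per kb around a median of 139, and 65 of them between 50 and 350. The 5 highest were Rps24 with 529.5 CPM per kb, Rps27 with 437, Rpl7 with 380, Rps15 with 352 and Rpl4 with 332. The stalk proteins, which recruit translation factors to the large subunit, were above the median, with 224 CPM per kb for Rplp0, 240 for Rplp1 and 172 for Rplp2. Rps6, the substrate of the S6 kinases, was at 103.5 CPM per kb, and Rps19, the subunit first linked to Diamond-Blackfan anaemia, at 69.4.

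Rpl24 was the lowest subunit gene at 1.14 CPM per kb, followed by Rps10 at 3.02, Rpl13a at 4.28 and Rpl35 at 15.5. In counts, Rpl24 had 7 to 32 per library, Rps10 22 to 61 and Rpl13a 57 to 163, the fewest of any subunit gene. A large part of the exons of each of these 4 overlaps with exons of other annotated genes on either strand. The overlap was 71.5% for Rpl24 (Gm28037), 91.6% for Rps10 (RPS10-NUDT3), 59.3% for Rpl13a (Gm45713) and 68.3% for Rpl35 (Wdr38). The percent counts all overlapping genes together, and the gene in brackets has the largest overlap. Of the other subunit genes, only Rpl23a (55.4%) and Rpl5 (46.6%) had an overlap of at least 40%, a limit chosen after the levels were seen. These 6 genes were at 1.14 to 40.5 CPM per kb with a median of 9.89, and the other 71 subunit genes at 30.1 to 530 with a median of 140. How reads in shared exons were counted is not given in the sources used here, and its part in these levels was not tested.

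Sharing of sequence with other genes was the rule in this set. Of the 85 genes, 82 have at least 1 stretch of 50 bases that also occurs in another annotated gene, most often a processed pseudogene, and in 55 more than 50% of such stretches are shared. Reads of these genes can be placed in more than 1 gene, so their levels are uncertain to that extent. Rows named after these genes with -ps in the symbol, 300 in number, took up 0.0045 to 0.0076% per library. Pseudogenes under other names are not in this share, so what all pseudogene copies took up was not measured.

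**Figure D1:**
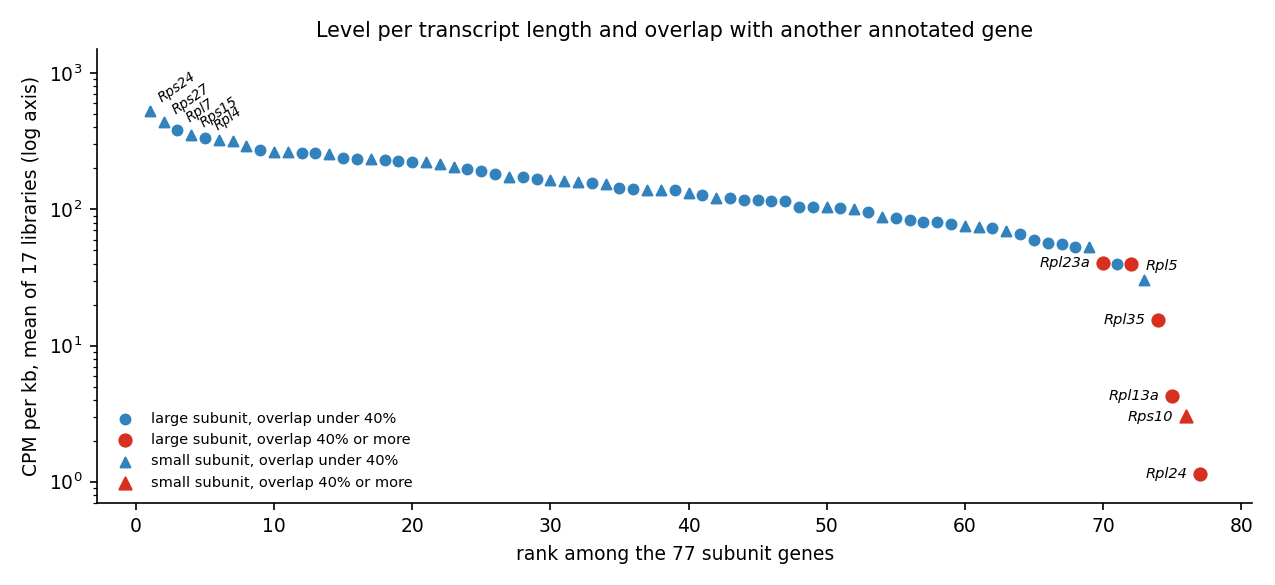
Level of the 77 subunit genes, ranked from high to low, as the mean over 17 libraries in CPM per kb of the principal transcript (log axis). Circles mark the large and triangles the small subunit. Genes whose exons overlap by at least 40% with exons of other annotated genes on either strand are in red. The 4 lowest genes, Rpl24 at 1.14, Rps10 at 3.02, Rpl13a at 4.28 and Rpl35 at 15.5, are all red, and most of the others lie between 50 and 350.

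Among the paralogs, the canonical gene was the higher member of every pair in CPM per kb. These levels carry the uncertainty from shared sequence given above. Rps27 was at 437 CPM per kb, its paralog Rps27l, a gene induced by p53, at 66.4, and the retrogene Rps27rt at 5.17. Rpl22 was at 274 CPM per kb against 31.3 for Rpl22l1, and Rpl7 at 380 against 30.4 for Rpl7l1. Rpl36a was at 83.1 CPM per kb against 0.288 for Rpl36al, and Rpl39, which lines the exit tunnel for the nascent chain, at 55.5 against 0.119 for Rpl39l. The testis-expressed Rpl10l had no count in any library, while Rpl10 was at 259 CPM per kb. Rpl10l, Rpl36al (0 to 8 counts) and Rpl39l (0 to 6 counts) did not pass the filter on low counts, and the other 82 genes were tested in every comparison. Rps4l, a paralog of Rps4x, is annotated as a pseudogene and was not part of the set.

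Summed over the set, ribosomal protein genes took less of the library in WT LA than in any other group. WT LA libraries gave 0.786, 0.855 and 0.737% of their counts to the set, Het LA libraries 0.944, 1.03 and 0.947%, and KO LA libraries 0.864, 0.908 and 0.875%. The share in every WT LA library was below that in every Het LA and KO LA library, with or without WT LA replicate 3. WT RA libraries gave 0.954 and 0.919%, Het RA libraries 1.02, 1.015 and 0.970%, and KO RA libraries 0.922, 0.986 and 0.870%. There both WT libraries were below all Het libraries and within the range of KO.

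The mitochondrial share, given above, was highest in the same WT LA libraries. As a share of the counts in matched nuclear genes, with mitochondrial genes and unmatched rows left out, the set took 1.07, 1.18 and 1.03% in WT LA, 1.199, 1.28 and 1.185% in Het LA, and 1.08, 1.15 and 1.15% in KO LA. On this measure WT LA overlapped with KO LA, and the highest WT LA library came just under the lowest Het LA library. WT RA was at 1.22 and 1.199%, Het RA at 1.27, 1.28 and 1.21%, and KO RA at 1.17, 1.24 and 1.12%. In the RA all 3 genotypes overlapped on this measure.

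**Figure D2:**
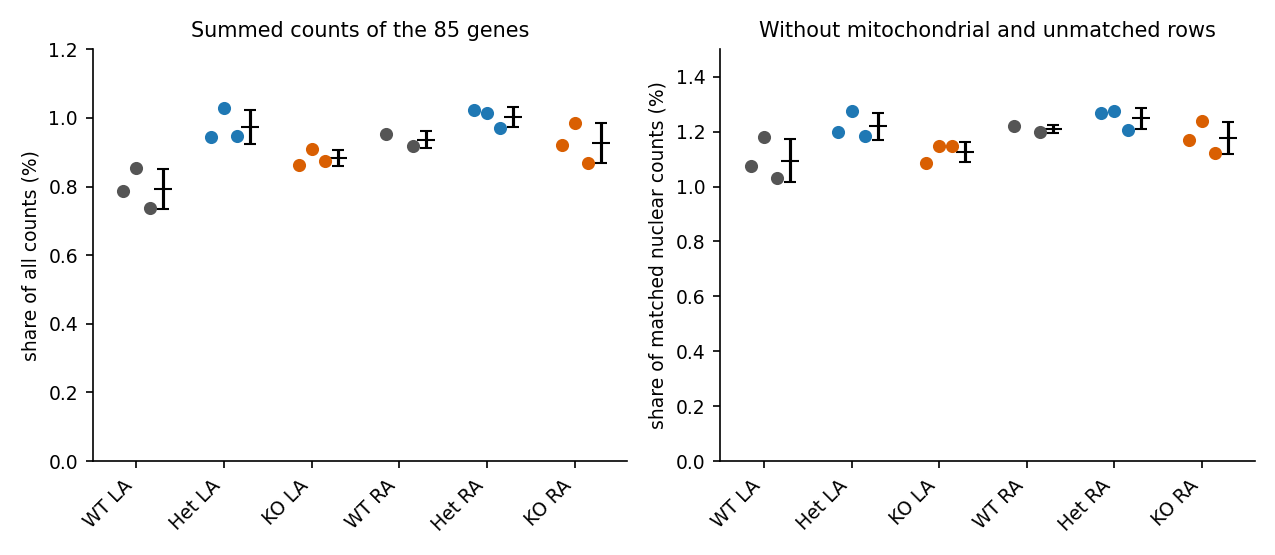
Share of the 85 ribosomal protein genes in each library as a percent of all counts and as a percent of counts in matched nuclear genes, with points for libraries and bars for mean and SD (WT RA has 2 libraries, all other groups 3). On the first scale WT LA lies at 0.737 to 0.855%, below all Het LA and KO LA libraries, and on the second it overlaps with KO LA.

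The comparison of KO with WT asked which atrial genes depend on Zfhx3. In the LA, Rps29 and Rpl36a fell in KO, and none of the 82 tested genes rose. That is 2.44% of the set lower, against 4.39% of 16974 tested genes lower and 3.42% higher (edgeR quasi-likelihood test, Benjamini-Hochberg adjusted p under 0.05, referred to below as edgeR adjusted p). The median log2 fold change of the set was -0.058, with a middle 50% of -0.12 to 0.01, against -0.0016 over all genes, and 58 of 82 genes (70.7%) were below 0 against 50.1% of all genes. At an unadjusted p under 0.05, 2 genes were higher and 13 lower, 18.3% against 25.5% of all genes. The changes were small for most genes. The median size of the log2 fold change was 0.09 in the set and 0.19 over all genes, and for 72 of 82 genes the 95% interval lay within 0.5 of 0.

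In the RA, Rps29 and Rpl35 fell in KO and again none rose. These 2 of 82 (2.44%) stand against 0.285% of 17201 tested genes lower and 0.238% higher. The median log2 fold change was -0.073 against -0.0031 over all genes, and 58 of 82 genes were below 0. At an unadjusted p under 0.05, 20 of 82 genes (24.4%) were lower and 0 higher, against 14.6% of all genes in either direction. Large-subunit genes had a median of -0.10 and small-subunit genes of -0.05 in the RA, and -0.08 and -0.04 in the LA. With offsets for transcript length and GC content the median of the set turned to 0.0051 in the LA and was -0.0095 in the RA, so the direction of the median in the LA depends on that setting. Leaving out 1 library at a time, it ran from -0.086 to 0.0080 in the LA, and it was -0.072 without WT LA replicate 3.

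Rps29, a small zinc-binding protein of the small subunit, is encoded on chromosome 12 (69157722 to 69159186, minus strand, GRCm38). Its level was 47.04, 49.03 and 34.01 CPM in WT LA, 38.02, 32.2 and 37.4 in Het LA, and 18.99, 26.6 and 28.55 in KO LA. Every KO LA library was below every WT LA library, while Het LA overlapped with WT LA through WT LA replicate 3. In the RA it was 58.25 and 48.1 CPM in WT libraries, 28.2, 33.2 and 28.8 in Het libraries, and 24.6, 31.25 and 21.5 in KO libraries. Both WT RA libraries were above all Het RA and KO RA libraries, and Het RA and KO RA overlapped.

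The log2 fold change of Rps29 in KO against WT was -0.82 in the LA (95% interval -1.21 to -0.43, edgeR adjusted p = 0.0288) and -1.03 in the RA (-1.36 to -0.70, edgeR adjusted p = 0.023). Without WT LA replicate 3 it was -0.96 in the LA (edgeR adjusted p = 0.0189). The call was lost when any of 5 of the 9 LA libraries was left out (both other WT LA libraries and each KO LA library, edgeR adjusted p of 0.0516 to 0.089), and when any of 4 of the 8 RA libraries was (both WT RA libraries and KO RA replicates 1 and 3, 0.0624 to 0.232). The call was kept in 13 of 20 alternatives in the LA and 14 of 19 in the RA, and its direction did not turn in any of them. The LA call was also lost with only the genotypes compared in the fit (0.0622) and with the replicate number as a block (edgeR adjusted p = 0.06), and the RA call with the log2 Xist level as a covariate (0.0683). Of the 50-base stretches of Rps29, 35.8% also occur in another annotated gene.

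Rpl36a, a large-subunit protein near the exit site for transfer RNA, lies on the X chromosome (134585654 to 134588062, plus strand). It was at 46.15, 46.7 and 38.6 CPM in WT LA, 42.5, 41.5 and 42.9 in Het LA, and 29.3, 35.02 and 35.4 in KO LA. KO LA was below both other genotypes in every library. The log2 fold change in KO against WT LA was -0.41 (95% interval -0.61 to -0.21, edgeR adjusted p = 0.027), and -0.48 without WT LA replicate 3 (edgeR adjusted p = 0.021). The call was lost without WT LA replicate 1 or 2 or KO LA replicate 1 or 3 (edgeR adjusted p of 0.0576 to 0.0911), and with the log2 Xist level as a covariate (0.0592), and was kept in 13 of 20 alternatives. In the RA the level was 49.3 and 46.5 CPM in WT libraries, 38.1, 43.4 and 37.5 in Het libraries, and 36.3, 38.4 and 34.6 in KO. WT RA was above all other RA libraries, and the log2 fold change of KO against WT RA was -0.38 without passing the test (edgeR adjusted p = 0.0736).

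Rpl35, which sits beside the exit of the nascent chain tunnel, is encoded on chromosome 2 (39001580 to 39005624, minus strand). It was at 22.2 and 18.1 CPM in WT RA, 10.4, 15.2 and 14.0 in Het RA, and 11.85, 12.1 and 10.2 in KO RA. Both WT RA libraries were above every Het RA and KO RA library. The log2 fold change of KO against WT RA was -0.82 (95% interval -1.16 to -0.48, edgeR adjusted p = 0.0473). Leaving out any of 5 RA libraries (both WT RA libraries and each KO RA library) ended the call, with an edgeR adjusted p of 0.0785 to 0.377, as did 5 other alternatives, among them the Xist covariate (0.0984) and length and GC offsets (0.116), so that it was kept in 9 of 19. In the LA it was at 21.1, 20.6 and 12.9 CPM in WT libraries, 14.9, 14.1 and 15.3 in Het libraries, and 9.82, 12.8 and 13.8 in KO libraries. WT LA replicate 3, the library that stood apart, was within the range of KO LA. The log2 fold change of KO against WT LA was -0.60 (edgeR adjusted p = 0.0665), and without that replicate -0.78, which passed the test. Exons of Rpl35 overlap with those of Wdr38, as given above, and 95.1% of its 50-base stretches also occur in another annotated gene.

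**Figure D3:**
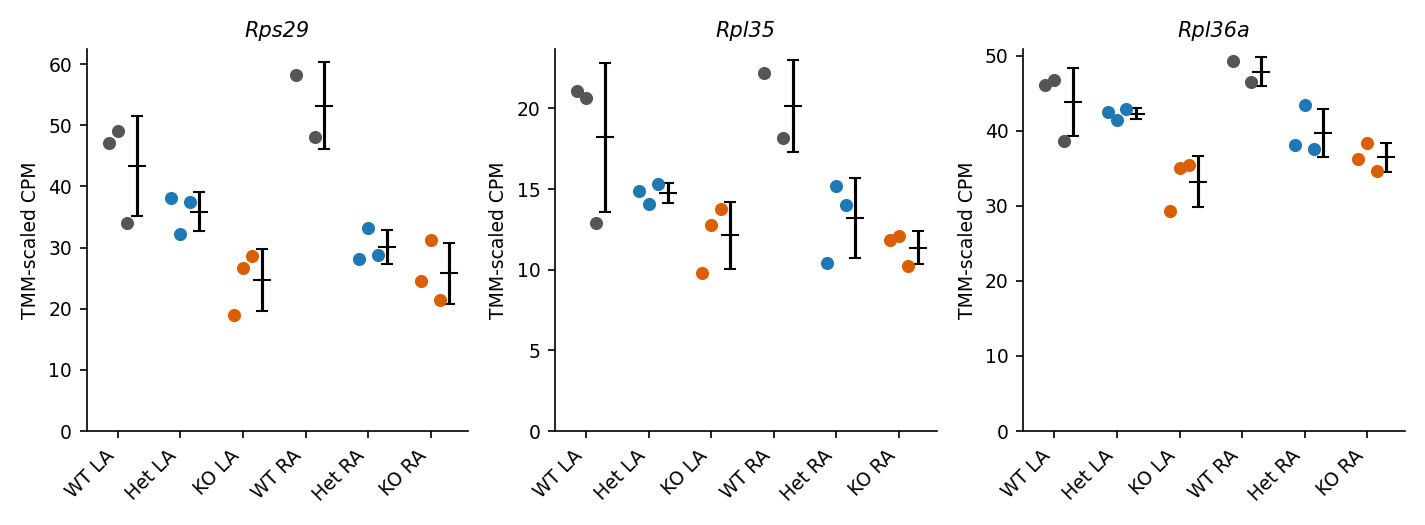
Level in CPM of Rps29, Rpl35 and Rpl36a, the genes that passed the test in a comparison of KO or Het with WT, with 1 point per library and bars for mean and SD in each group. For Rps29 in the RA both WT libraries (48.1 and 58.25) lie above all Het and KO libraries, and for Rpl35 WT LA replicate 3 (12.9) lies among the KO LA libraries.

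The other genes named for their roles did not pass the test in KO against WT. Rpl5 and Rpl11, which with 5S ribosomal RNA form the particle that binds Mdm2 and so links ribosome assembly to p53, were among the lower ones. Rpl5 was at 98.35 and 99.4 CPM in WT RA, 70.01, 84.8 and 78.2 in Het RA, and 75.5, 77.99 and 67.85 in KO RA. WT RA was above all other RA libraries, with a log2 fold change of -0.41 for KO (edgeR adjusted p = 0.0703) and -0.34 for Het (edgeR adjusted p = 0.116). In the LA the KO fold change of Rpl5 was -0.30 (edgeR adjusted p = 0.118), and -0.38 without WT LA replicate 3 (edgeR adjusted p = 0.0613). Rpl11 was at 64.1 ± 5.6 CPM in WT LA and 52.3 ± 7.16 in KO LA (SD, n = 3), a log2 difference of -0.30 (edgeR adjusted p = 0.0787), and -0.35 without that replicate (edgeR adjusted p = 0.0803).

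The stalk was level in KO and WT LA within the spread between libraries. Rplp0, which anchors the stalk, was at 318.8 ± 34.1 CPM in WT LA and 300.3 ± 12.2 in KO LA (SD, n = 3), a log2 difference of -0.10 (edgeR adjusted p = 0.518). Rplp1 differed by -0.03 and Rplp2 by -0.10 on the log2 scale. Rpsa, the small-subunit protein also known as a laminin receptor, was at 217 ± 25.8 CPM in WT LA and 231 ± 5.87 in KO LA (SD, n = 3), a difference of 0.08. Rps27a, made as a fusion with ubiquitin, differed by -0.17 and Rps19 by -0.06. Rps6 differed by -0.03, Rps4x by 0.01 and Rpl13a by -0.08, all on the log2 scale and none past the test. None of these 9 genes passed without WT LA replicate 3 either. Rps4x was then at -0.03, Rps6 at -0.07, Rpl13a at -0.18 and Rpsa at 0.04, each moved by over 1.5 times or turned, as were Rplp0 at -0.06 and Rplp1 at -0.05.

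Het against WT shares the WT libraries with KO against WT, so the values are set side by side only. In the LA, 0 of 82 genes passed the test in either direction, against 4.02% of 16974 genes higher and 5.38% lower. The smallest edgeR adjusted p was 0.0652. At an unadjusted p under 0.05, 6 genes were higher and 0 lower (7.32% against 26.9% of all genes). DESeq2 called 2 higher, where it called 6.41% of all genes higher. The median log2 fold change was 0.053, where KO against WT LA had -0.058. It ran from 0.025 to 0.11 with 1 library left out at a time (0.041 without WT LA replicate 3) and was 0.0985 with length and GC offsets. Rps29 was -0.29 in Het against WT LA (95% interval -0.68 to 0.10, edgeR adjusted p = 0.313). The gene with the smallest p was Rpl7l1, a paralog of Rpl7 that acts in ribosome assembly, at 33.7, 40.8 and 33.8 CPM in WT LA, 41.2, 45.8 and 44.8 in Het LA and 43.6, 41.8 and 43.1 in KO LA. All Het LA and KO LA libraries were above all WT LA libraries, with log2 fold changes of 0.27 for Het (edgeR adjusted p = 0.0652) and 0.24 for KO (edgeR adjusted p = 0.105), or 0.24 and 0.20 without WT LA replicate 3 (edgeR adjusted p of 0.159 and 0.24).

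In the RA, Rps29 fell in Het against WT, 1 of 82 genes (1.22%) against 0.314% of 17201 genes lower and 0.256% higher. Its log2 fold change was -0.82 (95% interval -1.14 to -0.49, edgeR adjusted p = 0.0489), and the call was lost without any of 6 of the 8 RA libraries (each Het and WT library and KO RA replicate 3, edgeR adjusted p of 0.0543 to 0.316) and kept in 8 of 18 alternatives. Rpl35 was -0.60 (edgeR adjusted p = 0.11) and Rpl36a -0.26 (edgeR adjusted p = 0.193). The median of the set was -0.041, against 0.0089 over all genes, and 0.018 with length and GC offsets. Rpl22l1, the paralog of Rpl22, was at 21.4 and 19.7 CPM in WT RA, 15.4, 16.0 and 14.1 in Het RA, and 17.8, 15.9 and 13.7 in KO RA. WT RA was above all the other RA libraries for Rpl22l1, and neither the Het (-0.43, edgeR adjusted p = 0.124) nor the KO difference (-0.37, edgeR adjusted p = 0.172) passed the test.

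KO and Het were compared directly as well. Xist was high and Ddx3y absent in every Het library and, among KO, in replicate 1 only. Sex by these genes thus also differs between the groups, and its part was not tested. No gene of the set passed the test in the LA or the RA, and 0% of all genes did. In the LA 74 of 82 genes had a log2 fold change below 0 in KO against Het, with a median of -0.11 (-0.15 to -0.057 with 1 library left out at a time), 13 genes lower and 0 higher at an unadjusted p under 0.05 (15.9% against 4.54% of all genes), and a smallest edgeR adjusted p of 0.974. In the RA 70 of 82 genes were below 0, with a median of -0.051 (-0.10 to -0.021 with 1 library left out). There 0 genes were under an unadjusted p of 0.05, against 6.26% of all genes, and the smallest edgeR adjusted p was 0.79. DESeq2 called 0 genes of the set in either atrium.

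**Figure D4:**
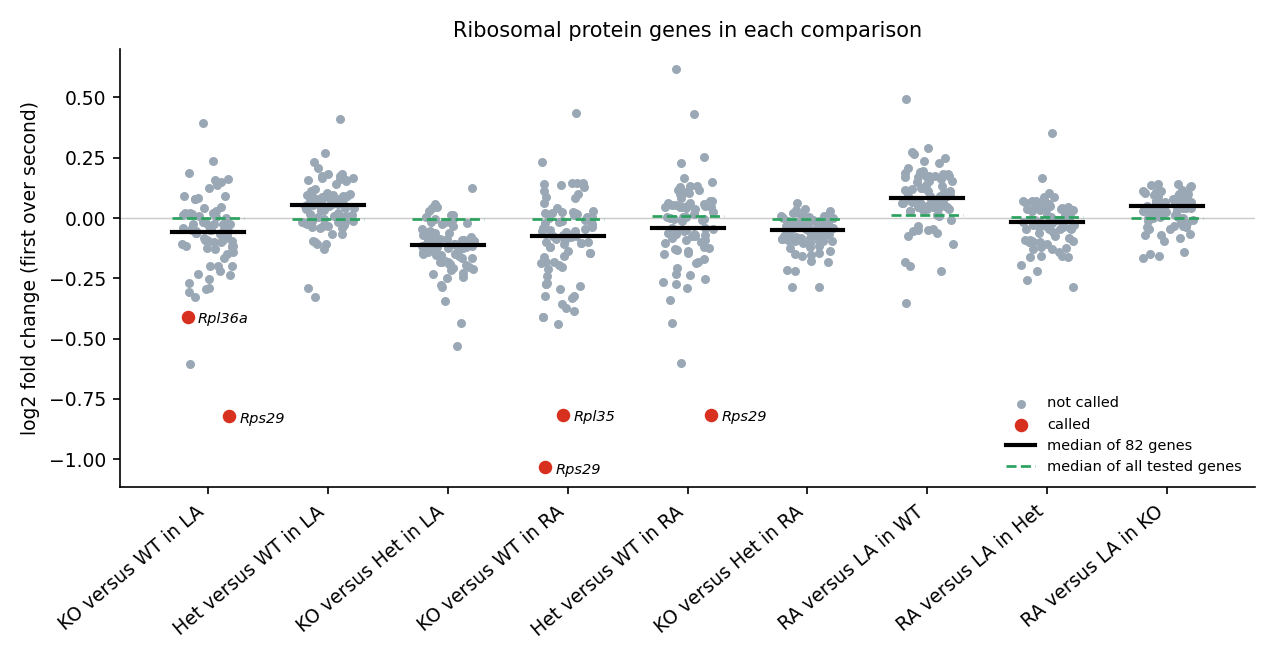
Log2 fold change of the 82 tested genes in 9 comparisons, 1 point per gene, with called genes in red, the median of the set as a black line and the median of all genes as a dashed green line. Most points lie within 0.5 of 0, and the called genes Rps29, Rpl36a and Rpl35 lie at the lower edge of the KO against WT and Het against WT columns.

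How a library is scaled moved these values together. With library totals alone in place of TMM, the median over all genes shifted to 0.18 in KO against WT LA and 0.24 in Het against WT LA, and the medians of the set to 0.12 and 0.29. On this scale 10 genes of the set were called higher in KO LA (16.1% of all genes) and 50 in Het LA (25.3% of all genes). Relative to the median of all genes the set was at -0.06 in KO and 0.06 in Het LA under either scaling.

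The atria were compared within each genotype. In WT, 0 of 82 genes passed the test, against 5.31% of 18018 genes higher in RA and 6.56% lower. At an unadjusted p under 0.05, 7 genes were higher and 2 lower in RA (10.98% against 25.1% of all genes), and DESeq2 called 0. The median log2 difference of RA from LA was 0.083 against 0.013 over all genes, and 13 of 82 genes were below 0. Without WT LA replicate 3 the median was 0.035. Rps6 came closest. It was at 83.1, 91.1 and 78.1 CPM in WT LA and 103 and 100 in WT RA, without overlap, a log2 difference of 0.27 (95% interval 0.09 to 0.46, edgeR adjusted p = 0.0524), and 0.21 without that replicate (edgeR adjusted p = 0.183).

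By the IDs in their titles, LA and RA libraries with 1 number are from 1 animal. With the animal as a replicate block, 9 genes of the set were called higher in WT RA (9.55% of all genes), among them Rps6 with a log2 difference of 0.34, Rps12 with 0.33, Rpl37a with 0.33 and Rpl3 with 0.25. Which of 2 animals the identical WT RA columns came from is unknown. With that library taken as animal 2 in place of animal 1, 3 genes were called higher and 1 lower, so that the call for most of the 9 depends on this assignment. The share of all genes called with animal 2 is not given here, so the smaller count says nothing about the set. With library totals alone, 36 genes were called higher in WT RA (16.0% of all genes).

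In Het, 0 of 82 genes passed the test between the atria, against 3.32% of all genes higher in RA and 4.37% lower, with a median of -0.015 that turned to 0.0028 with length and GC offsets. Rps27l had the smallest p, at 35.6, 37.5 and 34.5 CPM in Het LA and 30.4, 31.6 and 30.3 in Het RA, a log2 difference of -0.22 (edgeR adjusted p = 0.0659) that passed the test with the animal as a block. In KO, 0 of 82 genes passed, against 3.66% higher and 4.68% lower, with a median of 0.048 that ran from -0.0073 to 0.083 with 1 library left out at a time. At an unadjusted p under 0.05, 1 gene was lower in Het (1.22% against 20.1% of all genes) and 0 genes differed in KO (against 19.9%). DESeq2 called 0 in both. The difference of the atrial contrast from that in WT, tested as an interaction, was called for 0 genes of the set and 0% of all genes, for KO and for Het alike. The medians of these interactions were -0.032 for KO and -0.094 for Het (0.013 and -0.044 without WT LA replicate 3). Under an unadjusted p of 0.05 were 0 and 3 genes of the set (0 and 3.66%), against 3.95% and 4.36% of all genes. DESeq2 called 0 of the set.

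Within groups, the genes of the set varied together. The deviations of a gene from its group means correlated between 2 genes of the set at a mean r of 0.459 over 17 libraries, and 92.4% of pairs were above 0, where the mean over pairs of all 18018 tested genes was 0.00113. The points are the same 17 libraries for every gene, with the same scaling, and many of the genes share sequence, so this is given as a description. The genes closest to the mean of the others were Rpl37a (r = 0.952), Rpl32 (0.950) and Rps12 (0.927). Rpl24 (-0.08), Rps10 (0.01) and Rps27rt (0.10) did not follow it, and all 3 are among the lowest genes of the set. Level and r did not go together throughout. Rpl21 came next (r = 0.155) with a level of 166 CPM per kb. Rps24, the highest gene, had an r of 0.367, and Rpl13a, also among the lowest, of 0.459. The mean deviation of the set from its group ranged from -0.12 in KO LA replicate 1 to 0.11 in WT LA replicate 2 on the log2 scale, wider on either side than the median of the set in KO against WT LA (-0.058).

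Fold changes in the set also varied with features of the gene. Across the 82 genes, the Spearman correlation of the KO against WT log2 fold change with the length of the principal transcript was 0.27 in the LA and 0.26 in the RA, and with the share of 50-base stretches found in other genes -0.20 and -0.35. Genes are not independent replicates, and their part in the results was not tested.

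Of the ribosome's genes outside the set, neither Rack1 nor Fau passed the test between genotypes, and Rpl3l differed between the atria. Rack1, a scaffold on the small subunit, had a mean of 212 CPM over 17 libraries (185 to 234). Fau was at a mean of 44.2 CPM (37.3 to 51.2), with a log2 difference of -0.23 in KO against WT RA (edgeR adjusted p = 0.31). Rpl3l, the striated muscle paralog of Rpl3, was at 12.01, 14.3 and 15.9 CPM in WT LA and 8.18 and 8.71 in WT RA, with both WT RA libraries below every WT LA library. It was lower in RA in WT (-0.73, edgeR adjusted p = 0.00699, and -0.65, edgeR adjusted p = 0.024, without WT LA replicate 3) and in KO (-0.50, edgeR adjusted p = 0.0366), while in Het the difference of -0.39 did not pass (edgeR adjusted p = 0.116). In KO against WT LA it differed by -0.35 (edgeR adjusted p = 0.154).

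Genes that act on the ribosome were read from lists of known members, beside the shares of all genes called, 3.42% higher and 4.39% lower in KO LA, and 4.02% and 5.38% in Het LA. No list was tested as a whole, and nothing is read from the counts about a list. Of 14 elongation factor genes tested, 1 fell in KO LA and 1 in Het LA. Both calls are Eef1a2, the elongation factor form of muscle and neurons, which went from 673 ± 51.9 CPM in WT LA to 526 ± 27.8 in KO LA (SD, n = 3), a log2 difference of -0.36 (edgeR adjusted p = 0.0245), and was -0.40 in Het LA (edgeR adjusted p = 0.015). Of 35 initiation factor genes, 2 fell in KO LA, Eif4e, the cap-binding protein (-0.27, edgeR adjusted p = 0.0292), and Eif5b, which joins the subunits (-0.28, edgeR adjusted p = 0.0305). In Het LA 1 rose and 2 fell, with Eif4e at -0.35 and Eif5b at -0.30. Without WT LA replicate 3 the KO LA calls of Eef1a2, Eif4e and Eif5b were lost (edgeR adjusted p of 0.0707, 0.0904 and 0.0848), as was that of Eif5b in Het LA (0.0637). Neither list had a call between genotypes in the RA. Between the atria of WT, 2 elongation and 4 initiation factor genes were lower in RA, where 6.56% of all genes were lower. Among them were Eef1a2 (-0.32, edgeR adjusted p = 0.0123) and Eif4e (-0.42, edgeR adjusted p = 0.00119).

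The same shares of all genes stand beside the next lists, 3.42% higher and 4.39% lower in KO LA, 4.02% and 5.38% in Het LA. Of 20 genes of RNA polymerase I and its factors, which make ribosomal RNA, 1 fell in KO LA and in Het LA. This was Polr1a, the largest subunit (-0.36, edgeR adjusted p = 0.0123, and -0.29, edgeR adjusted p = 0.0191). Of 94 genes for nucleolar ribosome assembly, 1 rose in KO LA (Nle1, 0.66, edgeR adjusted p = 0.0389) and 1 fell (Rrp1, -0.21, edgeR adjusted p = 0.0468). Of 41 genes of the mTORC1 pathway and of translational control, 2 rose and 4 fell in KO LA, and 1 rose and 3 fell in Het LA. Among those called in KO LA were Larp4 at 0.34 and Rragd, a Rag GTPase, at -0.59. In KO RA Eef2k, the kinase of elongation factor 2, fell by 0.49 on the log2 scale (edgeR adjusted p = 0.0374), 1 of 41 genes where 0.285% of all genes were lower. Of 26 ribosome quality control genes, 1 rose and 2 fell in KO LA, among them Vcp at -0.37 and Hbs1l at -0.31. Without WT LA replicate 3, Nle1 and Rrp1 in KO LA (edgeR adjusted p of 0.0562 and 0.101) and Polr1a in Het LA (0.0651) no longer passed, while Larp4, Rragd, Vcp, Hbs1l and, in KO LA, Polr1a did. The 13 tested host genes of small nucleolar RNAs had 0 calls by edgeR in any comparison. Their medians were -0.18 in KO against WT RA, -0.23 in Het against WT RA and 0.19 in RA against LA of WT.

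The levels of cell types moved with the groups too. The 14 cardiomyocyte markers had a mean log2 level of 11.64 to 11.84 in WT LA, 11.35 to 11.45 in Het LA and 11.42 to 11.57 in KO LA, and the 12 fibroblast markers summed to 1560 to 3993 CPM in WT LA, 4882 to 6066 in Het LA and 3794 to 5666 in KO LA. In the RA, fibroblast markers had mean log2 levels of 6.53 to 6.63 for WT, 6.91 to 7.13 for Het and 6.72 to 6.98 for KO. The part of these differences in the values of the ribosomal protein genes was not tested.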

How the data were processed

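The authors deposited raw gene counts per library, read here as whole-number counts with no normalization. Per the labels' protocols, RNA came from a Direct-zol column, and libraries from the KAPA mRNA HyperPrep method on a NovaSeq. Per the submitters' processing notes, STAR 2.7.9a, DESeq2 1.30.1 and mm10 were used; the counting rule, strand and annotation release were not given in the sources used here. Of 56691 IDs, 52073 were matched by base ID to GENCODE M21 (GRCm38), and 35 of them also by version. Unmatched IDs, with 0.418 to 2.63% of each library's counts, were kept. Those that passed the count filter are in the scaling, the tests and the shares over all genes. Genomic positions are from GENCODE M21.

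Titles name 9 animals. The 2 identical WT RA columns were counted as 1 library, although the tests had been designed for 9 libraries in each atrium. Comparisons used edgeR 4.0.16 in R 4.3.3 over all genes (TMM scaling, genes kept by filterByExpr with a count minimum of 10, quasi-likelihood test with robust fits, Benjamini-Hochberg adjusted p under 0.05). Genotype comparisons used the libraries of 1 atrium, and atrial comparisons all 17. CPM carries TMM scaling, log2 levels a prior count of 2, and ± is the SD between libraries. The scripts were tested on simulated data. LA and RA deviations of 1 animal correlated at 0.158 to 0.411 in all 8 pairs, so the animal block stands beside the atrial results; across genotypes a number pairs nothing (-0.105 to 0.144).

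The genes and lists were chosen with earlier results of these data known. Named are the 5 highest and 5 lowest genes per kb, called genes of at least 5 CPM (at most 4 each way per comparison), genes chosen for their role, the paralog pairs, and up to 2 called genes per list. Rpl3, Rps12, Rps27l, Rpl37a, Rpl32 and Rpl21 were also named after their values were seen. Alternatives were DESeq2 1.42.0, RLE scaling, library totals alone, length and GC offsets, no filter, pseudogene counts added to their parents, other sets of samples, the identical columns as 2 libraries, each library left out in turn, a replicate block, Xist as a covariate and, chosen after seeing the data, the block with the identical library as animal 2. The pseudogene counts added were those of rows with -ps in the symbol. Leaving out a WT RA library leaves only 1 of them, whose spread is then taken from the other groups. Precision of weakly expressed genes is limited by depth. Some items are not reported here.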

Additional observations from a re-analysis of the deposited data

How the results depend on the processing

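No called gene changed direction, but 12 of 246 recomputed medians of the set had another sign than above, in KO against WT LA, Het against WT RA, RA against LA of Het and of KO, and the KO interaction. With library totals alone the medians were 0.122 in KO against WT LA, 0.292 in Het against WT LA, 0.0522 in Het against WT RA, 0.254 in RA against LA of WT, and -0.17 and -0.219 for the KO and Het interactions; the set then had 10 higher calls in KO and 50 in Het against WT LA, 36 in RA against LA of WT, 1 lower call in KO against WT in each atrium and 0 in Het against WT RA.

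Lower calls in KO against WT LA (2 above) were 5 with all libraries in 1 fit, 4 by DESeq2, 7 with no filter, 0 with only those genotypes, 1 with the replicate block and 1 with the Xist covariate; higher calls were 1 with all libraries in 1 fit and 1 with no filter. In KO against WT RA (2) they were 1, 4, 8, 4, 1 and 0 in that order, and 8 with the identical columns as 2 libraries. In Het against WT RA (1) they were 0 with all libraries in 1 fit, 3 by DESeq2, 5 with the identical columns as 2 libraries, 4 with no filter, and 0 with RLE or with length and GC offsets. Higher calls in Het against WT LA (0) were 2 with all libraries in 1 fit, 2 by DESeq2, 4 with length and GC offsets, 2 with no filter and 1 with the replicate block. KO against Het LA had 3 lower calls with no filter. In RA against LA of WT there were 2 higher and 1 lower with the identical columns as 2 libraries, 4 higher with length and GC offsets, 9 with the replicate block, and 3 higher and 1 lower with that block and animal 2. In Het the block gave 1 lower call either way. Of all genes, DESeq2 called 5.70% lower in KO and 6.41% higher in Het against WT LA. In the RA it called 0.808% lower in KO and 1.10% lower in Het. With length and GC offsets, 4.54% were higher in Het against WT LA and 5.76% in RA against LA of WT. The block gave 9.55% higher there. For the other alternatives the share of all genes is not given here, so their counts say nothing about the set. The causes were not tested.

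Leaving out 1 library at a time gave 0 to 3 lower calls in KO against WT in either atrium, 0 to 1 in Het against WT RA, 0 to 1 higher in KO and in Het against WT LA (Rpl7l1, without WT LA replicate 2), and 0 to 2 higher and 0 to 1 lower in RA against LA of WT (without WT LA replicates 2 and 1). Over these fits, 249 to 1475 of all genes were called in either direction in KO against WT LA and 307 to 1742 in Het against WT LA. For the other comparisons the number over all genes is not given here. The leave-one-out counts therefore say nothing about the set. Genotypes share only a number, so the replicate block between them is no pairing. Depth limits Rpl24, Rps10 and Rpl13a most.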
